A study of Mus musculus with 6 samples.

Results

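The mu-class glutathione transferases of the mouse are encoded by 7 genes, Gstm1 to Gstm7, and all 7 were found by symbol among the 56980 Ensembl identifiers of the count table. They were studied in lung tumours of a mouse model labelled QKO and described as small cell lung cancer, which is typically a neuroendocrine tumour, taken about 4 months after virus was given. The samples were 3 tumours with Keap1 knockout and 3 control tumours, and both groups carried the QKO background. The labels spell out neither QKO nor the way Keap1 was inactivated. They do not say that each sample was its own animal either, and the spread behind every p-value may therefore not be that between animals. The tumours were sequenced as bulk messenger RNA, with 21801647, 22786776 and 23759892 reads counted in knockouts 1 to 3 and 20065069, 19881823 and 18731515 in controls 1 to 3.

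Glutathione transferases join the thiol of glutathione to electrophilic compounds, which makes them more soluble and ready for export. The mu class works as dimers in the cytosol and acts on epoxides, quinones and products of lipid peroxidation. Several of its genes are known targets of NRF2, the transcription factor that KEAP1 marks for degradation. In the lung, airway epithelium such as club cells is a known site of these enzymes.

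The libraries were first set against markers of the cells they could hold, and 2 controls stood apart. Levels are in CPM, read counts relative to library totals that were scaled by the TMM method. Of the 8 markers of neuroendocrine small cell lung cancer, Neurod1 had no read in the knockouts, and Chga, which encodes a secretory granule protein, had at most 0.366 CPM there, against 948 CPM in control 3. The 8 markers summed to 54.5 to 214 CPM in knockouts and to 106, 72.9 and 4840 CPM in controls 1 to 3, so the markers of the labelled tumour type were high in control 3 and far lower in the other 5 libraries. The 6 fibroblast markers summed to 375 to 1019 CPM in knockouts. In controls 1 to 3 they summed to 432, 33869 and 4938 CPM, highest in control 2. Most of the sum in control 2 came from Col1a1 and Col1a2, at 20424 and 12074 CPM. Pdgfra and Lum were also highest in control 2, whereas Col3a1 and Dcn were highest in control 3. The 5 club cell markers summed to 2346, 4254 and 6215 CPM in knockouts 1 to 3, against 1884, 1795 and 223 CPM in controls 1 to 3, without overlap. Scgb1a1, the largest part of that sum, and Scgb3a2 were above every control in every knockout, whereas Cyp2f2, Scgb3a1 and Hp overlapped between the groups. Of the 5, Scgb3a2 passed the edgeR test (adjusted p of 0.0391), where 2.42% of all tested genes were called higher. The 6 markers of alveolar type 2 cells summed to 1466 to 4147 CPM in knockouts and to 208 to 1092 CPM in controls, also without overlap, but 5 of the 6 genes overlapped singly and none passed the edgeR test. The sum of the 6 macrophage markers lay the other way, at 116 to 138 CPM in knockouts and 147 to 567 CPM in controls, with none past the edgeR test. Adgre1 and Csf1r were below every control in every knockout, whereas Cd68, C1qa, Marco and Mrc1 overlapped between the groups. The 6 ciliated cell markers summed to 57.5 to 105 CPM in knockouts and to 52.0 to 67.9 CPM in controls. The 7 hepatocyte markers, from a tissue rich in Gstm1, summed to 19.3 to 82.5 CPM in knockouts and to 10.4 to 155 CPM in controls, where Ttr alone gave 152 CPM in control 3. Alb, the hepatocyte marker albumin, had 636, 1 and 109 reads in knockouts 1 to 3, against 2, 2 and 0 in controls 1 to 3. It did not pass the filter for the edgeR test, and DESeq2, which called 6.86% of all genes higher, put its adjusted p at 0.000421. Fabp1 had 37, 1 and 1 reads in knockouts 1 to 3, against 0 in each control. Serpina1c had 0 in each knockout and in controls 1 and 3. Apoa1, Apob, Ttr and Ahsg overlapped between the groups, as did Alb. The part of these cell types in the levels of the Gstm genes was not tested. Calls of the members are also given without control 2 and without control 3.

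The 7 genes are near copies of each other, so part of each sequence is shown before the levels. They lie next to each other on chromosome 3, in the order Gstm5, Gstm7, Gstm6, Gstm3, Gstm2, Gstm1 and Gstm4 (RefSeq, GRCm38.p6). A processed pseudogene, Gstm2-ps1, lies on chromosome 5. In coding alignments of the longest protein-coding transcript of each gene (GENCODE release M21, GRCm38), Gstm1 shared 89.5% of bases with Gstm3, 86.0% with Gstm2, between 80.2% and 82.8% with Gstm4, Gstm6 and Gstm7, and 71.2% with Gstm5. Gstm5 was the most distant member, with 69.1% to 72.3% of bases shared with each of the others. The pseudogene, despite its name, was 97.9% identical to Gstm1 and 84.8% to Gstm2.

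The stretch of 60 coding bases that varied least among Gstm1 to Gstm7 had 15 variable positions, with the pseudogene left out of the count. It is shown as the stretch in which the genes are most alike. Capitals mark bases that differ from Gstm1, and the first base is coding base 203 in Gstm1.
Gstm1: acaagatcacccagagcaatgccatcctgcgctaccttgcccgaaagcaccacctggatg
Gstm2: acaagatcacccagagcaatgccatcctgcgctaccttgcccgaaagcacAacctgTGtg
Gstm3: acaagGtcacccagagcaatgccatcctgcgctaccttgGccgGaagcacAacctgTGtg
Gstm4: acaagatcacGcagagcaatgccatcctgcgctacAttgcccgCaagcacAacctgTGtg
Gstm5: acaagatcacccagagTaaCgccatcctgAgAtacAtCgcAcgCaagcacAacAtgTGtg
Gstm6: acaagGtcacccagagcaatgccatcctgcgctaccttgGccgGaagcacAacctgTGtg
Gstm7: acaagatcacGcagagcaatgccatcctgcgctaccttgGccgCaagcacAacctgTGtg
Gstm2-ps1: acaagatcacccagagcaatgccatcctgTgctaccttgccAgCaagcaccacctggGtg
Gstm3 and Gstm6 were identical over this stretch, and Gstm2 differed from Gstm1 at 3 of its bases. Gstm5 differed at 12.

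The stretch that varied most among Gstm1 to Gstm7 had 40 variable positions and is shown, in the same way, because it tells the genes apart. It starts at coding base 595 of Gstm1.
Gstm1: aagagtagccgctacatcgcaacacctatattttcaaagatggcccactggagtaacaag
Gstm2: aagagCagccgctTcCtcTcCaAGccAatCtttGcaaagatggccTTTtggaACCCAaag
Gstm3: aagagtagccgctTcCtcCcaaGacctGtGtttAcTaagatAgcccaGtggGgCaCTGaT
Gstm4: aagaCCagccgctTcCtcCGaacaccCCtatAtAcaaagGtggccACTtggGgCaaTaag
Gstm5: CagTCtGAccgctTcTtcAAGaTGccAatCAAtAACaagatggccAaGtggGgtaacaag
Gstm6: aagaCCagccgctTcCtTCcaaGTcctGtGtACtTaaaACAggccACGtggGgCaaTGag
Gstm7: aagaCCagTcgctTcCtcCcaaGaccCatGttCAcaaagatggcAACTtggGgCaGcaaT
Gstm2-ps1: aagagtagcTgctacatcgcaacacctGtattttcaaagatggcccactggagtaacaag
Here the 6 other members differed from Gstm1 at 16 (Gstm3) to 23 (Gstm6) bases, and the pseudogene at 2.

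**Figure D1:**
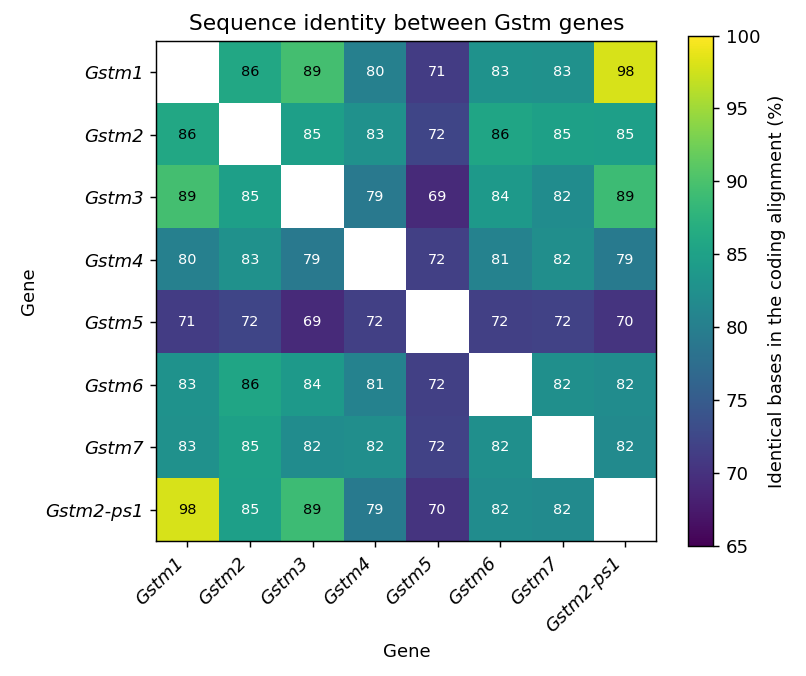
Percent of identical bases in coding alignments between the 7 Gstm genes and the pseudogene Gstm2-ps1, both axes listing the genes in the same order. Gstm5 was the most distant from all others, and Gstm2-ps1 was closest to Gstm1, at 97.9%.

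Exact matches between genes were counted in windows of 2 lengths. Of all windows of 100 bases along the longest coding transcript, 13.8% in Gstm3, 7.73% in Gstm1, 2.41% in Gstm6 and 0.622% in Gstm2 also occurred in a transcript of another gene, and none did in Gstm4 and Gstm7. Gstm1 shared 20 of 1190 windows with Gstm3 and 41 with Gstm2-ps1, and Gstm3 shared 26 of 1212 with Gstm6. At 150 bases no window was shared between any of the 7 members, and Gstm3 kept 3.44% of windows in common with Gm8834, a processed pseudogene on chromosome 10. Gstm5 shared 9.34% of its windows of 100 bases with 4933431E20Rik, an antisense gene that overlaps it, and 3.64% of those of 150 bases. Read length, strand and the handling of reads with several hits are not stated in the labels or file headers, so the counts of Gstm1, Gstm3, Gstm6, Gstm2-ps1 and Gstm5 are less certain than those of Gstm4 and Gstm7.

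The promoters of the members were searched for the core of the antioxidant response element, through which NRF2 binds DNA, as TGACNNNGC or, on the other strand, GCNNNGTCA. RefSeq (GRCm38.p6) gave 12 windows of 300 bases for the 7 genes, from 250 bases before to 50 after each start. The motif occurred in 2 windows, 1 of Gstm5 and 1 of Gstm7, against 12.4% of all 32851 windows and 14% of 27025 genes. The 250 bases before the start are shown for Gstm1 (upstream start, chr3:108017974-108018223, minus strand) and Gstm2 (chr3:107986421-107986670, minus strand), the 2 most abundant members, and for Gstm5 (chr3:107895604-107895853, plus strand), whose groups overlapped. Capitals mark the motif.
Gstm1: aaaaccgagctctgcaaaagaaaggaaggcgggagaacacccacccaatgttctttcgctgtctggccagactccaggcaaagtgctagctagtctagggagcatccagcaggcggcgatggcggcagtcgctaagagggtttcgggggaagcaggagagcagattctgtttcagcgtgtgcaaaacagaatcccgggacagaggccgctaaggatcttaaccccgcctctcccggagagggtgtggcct
Gstm2: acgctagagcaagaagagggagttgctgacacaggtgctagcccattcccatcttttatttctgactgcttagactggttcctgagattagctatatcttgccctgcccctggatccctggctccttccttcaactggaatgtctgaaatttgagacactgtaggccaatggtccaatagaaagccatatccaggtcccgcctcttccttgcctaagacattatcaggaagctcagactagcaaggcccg
Gstm5: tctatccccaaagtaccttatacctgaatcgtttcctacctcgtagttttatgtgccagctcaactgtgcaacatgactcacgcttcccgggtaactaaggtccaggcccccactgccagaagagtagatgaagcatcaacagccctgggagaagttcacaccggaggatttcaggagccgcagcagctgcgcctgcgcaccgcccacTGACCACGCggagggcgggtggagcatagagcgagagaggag
The match in Gstm5 began at -42 from the start and that in Gstm7, tctgaagaccTGACAAAGCgaagccaatc, at -129 from the downstream of its 2 starts. A match of these letters is not a binding site, and their absence from a window of this size says nothing about more distant elements.

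The family as a whole was far more abundant in Keap1 knockout tumours. The 7 genes together stood at 7114, 7495 and 7258 CPM in knockouts 1 to 3, against 89.4, 195 and 134 CPM in controls 1 to 3. The mean was 7289 ± 192 CPM in knockouts and 139 ± 52.9 CPM in controls (SD, n = 3 each), a ratio of 52.3. Their reads made up 0.700%, 0.718% and 0.695% of all counted reads in the knockouts, against 0.00878%, 0.0198% and 0.0144% in controls 1 to 3, with 95% Wilson intervals that together spanned 0.692% to 0.722% in knockouts and 0.00838% to 0.0204% in controls. Intervals of this kind cover counting error only. The knockouts lay close together and far above every control. Without Gstm1 the other 6 genes summed to 404 ± 7.61 CPM in knockouts and 55.1 ± 22.2 CPM in controls (SD, n = 3 each), a ratio of 7.33.

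Of the 7 members, 4 rose (Gstm1, Gstm2, Gstm4 and Gstm6) and none fell by edgeR's quasi-likelihood test at a Benjamini-Hochberg adjusted p below 0.05, against a background of 2.42% of the 17901 tested genes called higher, 1.89% called lower and 4.31% called in either direction. All 7 passed the filter on low counts. In 6 of the 7, all but Gstm5, the lowest knockout exceeded the highest control, against 21.5% of tested genes. The median log2 fold change of the members was 3.31, against -0.08 over all tested genes. DESeq2 and limma voom each called 6, all but Gstm5, where they called 6.86% and 3.71% of all genes higher. Tumours were sequenced in bulk, so fewer cells of a type and less RNA per cell cannot be told apart. Under edgeR the calls depended on which libraries were in the fit: without knockout 1, 2 or 3 none of the 7 passed, without control 2 only Gstm1 and Gstm2 did, and without control 3 all 7 did. The calls over all genes moved as well: higher calls numbered 2, 0 and 0 without knockout 1, 2 or 3, 147 without control 2, and 1568 of 18656 tested without control 3.

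Gstm1, the most abundant member, stood at 6715, 7082 and 6858 CPM in knockouts 1 to 3, against 54.4, 143 and 55.3 CPM in controls 1 to 3. The knockouts differed among themselves by a factor of 1.05 and the controls by 2.64, with control 2 the highest of them. The difference was 6.35 ± 0.55 on the log2 scale (SE), and edgeR's quasi-likelihood test put its adjusted p at 0.0171. Without knockout 1, 2 or 3 the fold change lay between 6.34 and 6.39, and edgeR's adjusted p was 0.0950, 0.153 and 0.150. The authors' deposited table gives a log2 fold change of 6.34 for Gstm1.

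Gstm2, which encodes a second widely expressed mu-class subunit, stood at 203, 224 and 202 CPM in knockouts 1 to 3, against 21.4, 28.3 and 13.4 CPM in controls 1 to 3. It rose by 3.31 ± 0.31 on the log2 scale (SE), and edgeR's quasi-likelihood test put its adjusted p at 0.0189. The groups did not overlap, and control 2 was again the highest control.

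Gstm4 stood at 59.7, 65.1 and 61.4 CPM in knockouts 1 to 3, against 4.67, 9.81 and 10.8 CPM in controls 1 to 3. It rose by 2.88 ± 0.36 on the log2 scale (SE), and edgeR's quasi-likelihood test put its adjusted p at 0.0283, or at 0.0528 without control 2. Its highest and lowest knockouts differed by a factor of 1.09, and the groups did not overlap. None of its windows of 100 bases matched another gene.

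Gstm6 was nearly silent in controls. It stood at 17.6, 26.4 and 30.6 CPM in knockouts 1 to 3, against 0.152, 0.545 and 1.34 CPM in controls 1 to 3, where control 1 had 3 reads, control 2 had 11 and control 3 had 27. The groups did not overlap. Gstm6 rose by 5.18 ± 0.83 on the log2 scale (SE), and edgeR's quasi-likelihood test put its adjusted p at 0.0391, or at 0.0699 without control 2.

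**Figure D2:**
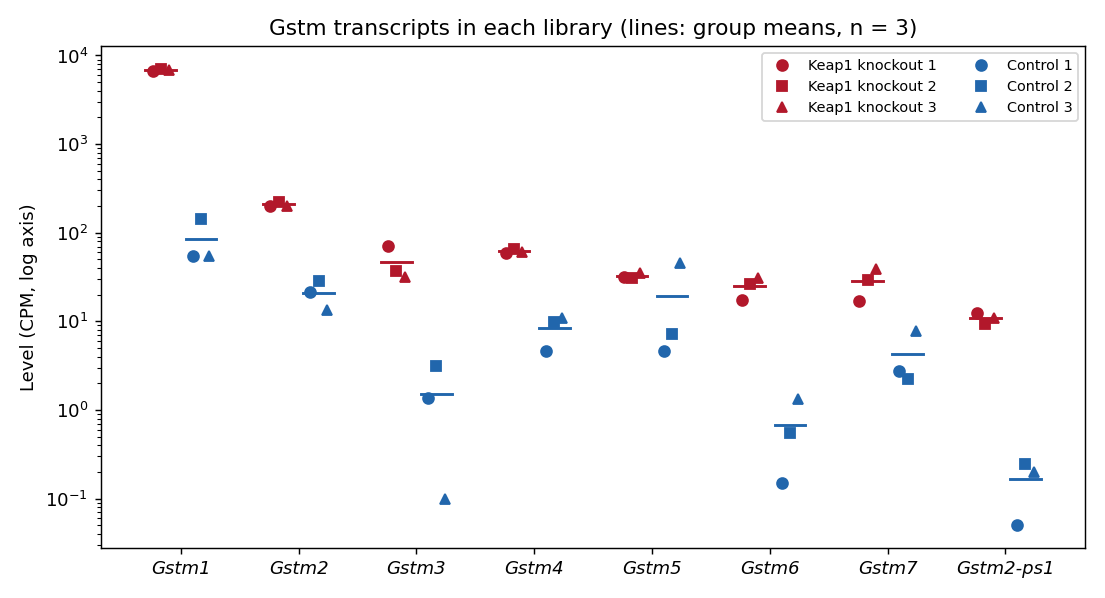
Level in CPM (log axis) of each Gstm gene and of the pseudogene Gstm2-ps1 in the 3 Keap1 knockout libraries (red, left) and the 3 control libraries (blue, right), with lines at the group means. Knockouts lie above controls for each gene but Gstm5, where control 3, at 45.4 CPM, lies above all of them.

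Gstm3 and Gstm7 were apart between the groups without passing the edgeR test. Gstm3 stood at 70.6, 37.2 and 31.6 CPM in knockouts 1 to 3, against 1.37, 3.12 and 0.0996 CPM in controls 1 to 3, where control 3 held 2 reads. Its difference was 4.92 ± 1.10 on the log2 scale (SE), and edgeR's quasi-likelihood test put its adjusted p at 0.0603. DESeq2 put the adjusted p of Gstm3 at 1.86e-05 and limma voom at 0.0397. Without control 3, edgeR gave 4.37 ± 0.60 (log2, SE) at an adjusted p of 0.0177. Its controls spanned a factor of 31.3, the widest of the 7 genes.

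Gstm7 stood at 17.2, 29.3 and 39.3 CPM in knockouts 1 to 3, against 2.74, 2.23 and 7.87 CPM in controls 1 to 3. Its difference was 2.74 ± 0.63 on the log2 scale (SE), and edgeR's quasi-likelihood test put its adjusted p at 0.0620. DESeq2 put the adjusted p of Gstm7 at 0.000491 and limma voom at 0.0485. Without control 3, the edgeR values for Gstm7 were 3.52 ± 0.45 (log2, SE) and an adjusted p of 0.0158. Among the knockouts Gstm3 was highest in knockout 1, where Gstm6 and Gstm7 were lowest. The factor between the highest and the lowest knockout was 2.23 for Gstm3, 2.28 for Gstm7 and 1.74 for Gstm6, against at most 1.14 for Gstm1, Gstm2, Gstm4 and Gstm5.

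Gstm5 was the 1 member whose groups overlapped. It stood at 31.4, 31.2 and 35.5 CPM in knockouts 1 to 3, against 4.67, 7.28 and 45.4 CPM in controls 1 to 3. Controls 1 and 2 lay well below the knockouts, and control 3 above them. The difference over all libraries was 0.77 ± 0.85 on the log2 scale (SE), and edgeR put its adjusted p at 0.567. Without control 3 the difference was 2.45 ± 0.27 (SE), at an edgeR adjusted p of 0.0125. The antisense gene 4933431E20Rik, whose reads may be mixed with those of Gstm5 where strand is not kept, had 196, 122 and 177 reads in knockouts 1 to 3, against 29, 32 and 254 in controls 1 to 3. It was thus also highest in control 3, the library in which the neuroendocrine markers were high, and the part of either in the Gstm5 value was not tested. Among the controls Gstm4, Gstm6 and Gstm7 were also highest in control 3, whereas Gstm2 and Gstm3 were lowest there.

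**Figure D3:**
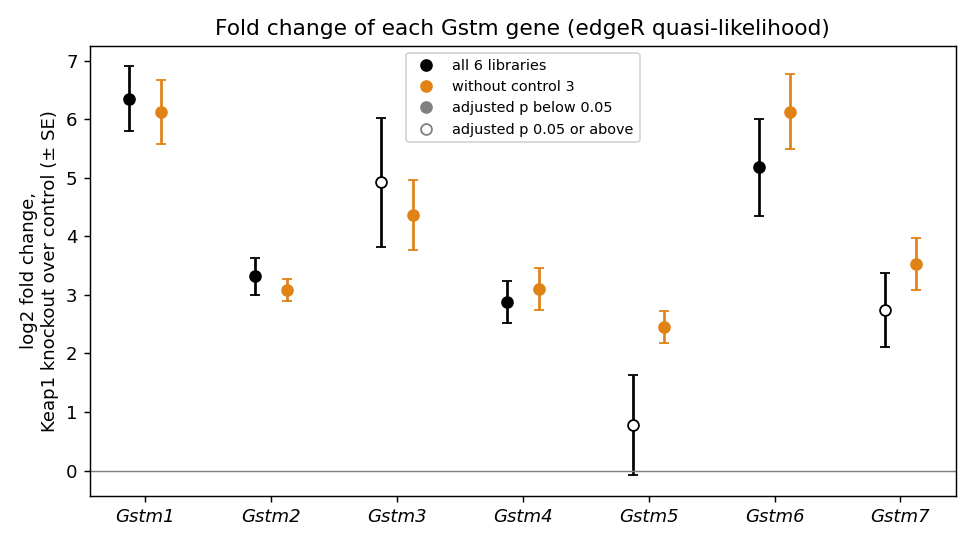
Log2 fold change of each Gstm gene, Keap1 knockout over control, with its SE from edgeR's quasi-likelihood fit, over all 6 libraries (black) and without control 3 (orange); filled points have an adjusted p below 0.05. Gstm5 moved the most, with 0.77 over all libraries and 2.45 without control 3.

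The make-up of the family differed between the groups. Gstm1 took 94.4%, 94.5% and 94.5% of the reads on the 7 genes in knockouts 1 to 3, against 60.8%, 73.7% and 41.2% in controls 1 to 3, with 95% Wilson intervals of 94.3% to 94.6% over the knockouts and, in the controls, of 58.5% to 63.1%, 72.3% to 75.0% and 39.3% to 43.0%. Gstm2 took 2.85%, 2.98% and 2.78% in knockouts 1 to 3, against 24.0% in control 1, 14.5% in control 2 and 270 of 2696 reads in control 3. Gstm5 took at most 0.489% in the knockouts, against 5.22%, 3.74% and 33.8% in controls 1 to 3, and control 3 held 912 Gstm5 and 1110 Gstm1 reads. Gstm3 took 0.993%, 0.496% and 0.436% in knockouts 1 to 3, against 1.532%, 1.603% and 0.0742% in controls 1 to 3. Gstm7 took 0.242%, 0.392% and 0.541% in knockouts 1 to 3, against 3.06%, 1.14% and 5.86% in controls 1 to 3. Gstm4 took 0.839%, 0.868% and 0.847% in knockouts 1 to 3, against 5.22%, 5.04% and 8.05% in controls 1 to 3. Gstm6 took 0.247%, 0.352% and 0.421% in knockouts 1 to 3, against 0.170%, 0.280% and 1.00% in controls 1 to 3. The shares of Gstm3 and Gstm6 thus overlapped between the groups. For Gstm3, Gstm6 and Gstm7 the 95% Wilson intervals in knockout 1 did not overlap those in knockouts 2 and 3. Those of Gstm2 and Gstm5 did not overlap between knockouts 2 and 3, whereas those of Gstm1 and Gstm4 overlapped among all 3 knockouts. These intervals cover counting error only.

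**Figure D4:**
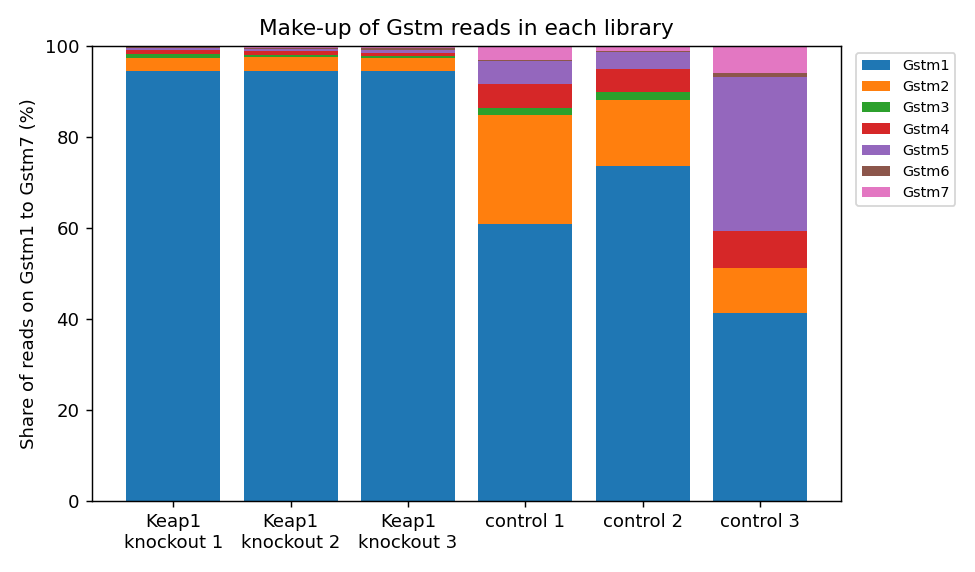
Share of the reads on Gstm1 to Gstm7 (%) that fell on each gene, in the 3 Keap1 knockout libraries (left) and the 3 control libraries (right). Gstm1 holds 94.4% to 94.5% in the knockouts and between 41.2% and 73.7% in the controls.

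Ratios within a library compare the paralogues with each other without any scaling between libraries. The log2 ratio to Gstm1 was lower in every knockout than in every control for Gstm2, Gstm4, Gstm5 and Gstm7. Gstm2 had a mean log2 ratio of -5.04 ± 0.05 in knockouts and -1.90 ± 0.51 in controls (SD, n = 3 each), and Gstm4 one of -6.79 ± 0.02 in knockouts and -3.24 ± 0.79 in controls. For Gstm5 the means were -7.72 ± 0.12 in knockouts and -2.69 ± 2.12 in controls, and for Gstm7 they were -7.98 ± 0.58 in knockouts and -4.34 ± 1.58 in controls. An exact two-sided permutation test over the 20 assignments gave p = 0.1 for each of these 4, the smallest that 3 against 3 allows, and 0.15 after adjustment over the 6 ratios. The ratios of Gstm3 and Gstm6 to Gstm1 overlapped between the groups. Their mean log2 ratios were -7.30 ± 0.64 in knockouts and -6.28 ± 1.62 in controls for Gstm3, and -8.15 ± 0.39 in knockouts and -6.95 ± 1.46 in controls for Gstm6 (SD, n = 3 each). The exact permutation p was 0.4 for Gstm3 and 0.2 for Gstm6, and after adjustment 0.4 and 0.24. No ratio could pass 0.05 in a design of this size.

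**Figure D5:**
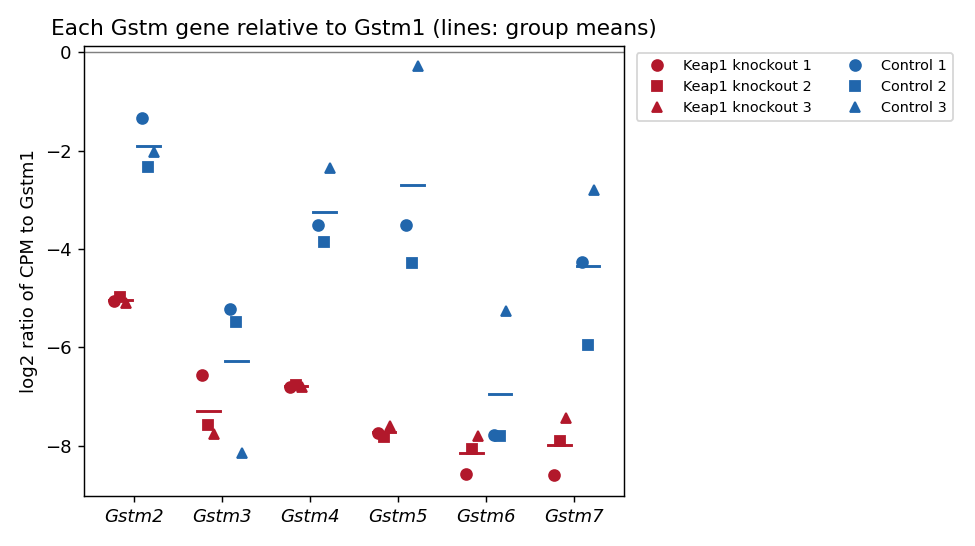
Log2 ratio of the CPM of each gene to that of Gstm1 in each library, with lines at the group means (Keap1 knockout red and left, control blue and right). The 3 knockouts lie close together for Gstm2, Gstm4 and Gstm5, with means of -5.04, -6.79 and -7.72, while the controls are spread, most of all for Gstm5.

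Levels can be ordered between genes only per length, here as CPM per kilobase of merged exons in GENCODE release M21. In knockouts the order was Gstm1 at 4674 ± 126, Gstm2 at 125 ± 7.39, Gstm4 at 36.4 ± 1.61, Gstm3 at 35.5 ± 16.1, Gstm5 at 25.6 ± 1.91, Gstm7 at 17.9 ± 6.91 and Gstm6 at 12.5 ± 3.34 CPM per kilobase (SD, n = 3). Only Gstm1 and Gstm2 stood clear of their neighbours, and from Gstm4 downwards each gene's libraries overlapped those of the next. In controls the order was Gstm1 at 57.3 ± 34.7, Gstm5 at 15.0 ± 17.8, Gstm2 at 12.5 ± 4.43, Gstm4 at 4.94 ± 1.93, Gstm7 at 2.67 ± 1.95, Gstm3 at 1.17 ± 1.16 and Gstm6 at 0.342 ± 0.305 CPM per kilobase (SD, n = 3). There Gstm1 and Gstm5 did not overlap, nor did Gstm2 and Gstm4, whereas the other neighbours in this order did. With the length of the longest coding transcript in place of merged exons, Gstm6 (21.1) and Gstm7 (20.8) changed places in knockouts, and the order in controls did not change.

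The pseudogene Gstm2-ps1 was also higher in the knockouts. It held 268, 202 and 248 reads in knockouts 1 to 3, against 1, 5 and 4 reads in controls 1 to 3. It rose by 5.98 ± 0.64 on the log2 scale (SE), and edgeR's quasi-likelihood test put its adjusted p at 0.0242. Its reads were 0.186%, 0.131% and 0.159% of those of Gstm1 in knockouts 1 to 3, against 0.0933%, 0.173% and 0.360% in controls 1 to 3, with 95% Wilson intervals that overlapped between the groups. Relative to Gstm2 they were 4.14% to 6.16% in knockouts and 0.237% to 1.48% in controls. Gm8834 held 15, 19 and 15 reads in knockouts 1 to 3, against no read in any control. It shares 39 windows of 100 bases with Gstm1 and 90 with Gstm3, and Gstm2-ps1 shares 39 with Gstm3. The part of misplaced Gstm1 or Gstm3 reads in the counts of Gstm2-ps1 and Gm8834 was not tested.

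Along the cluster, the log2 fold change was 0.77 for Gstm5, 2.74 for Gstm7, 5.18 for Gstm6, 4.92 for Gstm3, 3.31 for Gstm2, 6.35 for Gstm1 and 2.88 for Gstm4, so the 3 smallest values lay at its ends. Of the 10 protein-coding genes flanking the cluster, 5 on each side, 7 were tested and edgeR called none, with 2 at an unadjusted p below 0.05, and DESeq2 and limma voom also called 0. Their median log2 fold change was -0.46. The nearest tested neighbours were Ampd2, an AMP deaminase gene, at 53.1 ± 2.04 CPM in knockouts and 73.0 ± 23.5 CPM in controls, and Eps8l3, at 0.944 ± 1.13 CPM in knockouts and 1.23 ± 1.22 CPM in controls (SD, n = 3 each). Gnai3, which encodes an inhibitory G protein subunit, stood at 240 ± 7.39 CPM in knockouts and 247 ± 88.8 CPM in controls. In none of the 7 did every knockout lie above every control, against 21.5% of all tested genes, and in 2 every knockout lay below every control, against 19.1%.

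The members' nearest patterns among genes outside the family were found by the Pearson correlation of log2 CPM over the 6 libraries, among 12637 tested genes with a mean of at least 5 CPM. The libraries fall into 2 groups and the candidates are many, so high values are a description only. For Gstm1 they were Nradd, Gpx4 and Nelfb (0.999 each), of which Gpx4 encodes the glutathione peroxidase that reduces lipid hydroperoxides. Gpx4 stood at 633, 610 and 635 CPM in knockouts 1 to 3, against 239, 280 and 232 CPM in controls 1 to 3. For Gstm2 they were Rpp38, Il17rc and Mrpl15, for Gstm3 Bckdk, Tsta3 and Exoc6, and for Gstm4 Nosip, Creld1 and Ercc2 (each 0.998 or above). For Gstm6 they were Mfsd10, Ppil3 and Acrbp, and for Gstm7 Srpk1, Gas6 and Lyrm4 (0.995 to 0.998). For Gstm5 they were Agfg1, Pomgnt2 and Mpp6 (0.995 to 0.999), and Agfg1 stood at 132, 129 and 132 CPM in knockouts 1 to 3, against 91.6, 99.5 and 140 CPM in controls 1 to 3.

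The steps around the mu class were described with 4 lists. Keap1 stood at 80.2 ± 12.8 CPM in knockouts and 70.5 ± 10.4 CPM in controls (SD, n = 3 each), and disruption of a gene need not lower its transcript, so its level does not check the labels. Nqo1, the quinone reductase gene used as a readout of NRF2, rose by 5.58 ± 1.03 on the log2 scale (SE), and edgeR's quasi-likelihood test put its adjusted p at 0.0454. Of 12 tested regulators, the 1 that passed was Maff, a small MAF partner of NRF2, and the list's median was 0.18, where 2.42% of all tested genes were called higher and 4.31% in either direction. Of 20 other glutathione transferases tested, 5 rose and none fell in the edgeR test, with a median log2 fold change of 2.45, and in 15 every knockout lay above every control. Over all tested genes, 2.42% were called higher and 21.5% lay apart in this way. Gstt2, of the theta class, stood at 44.9 ± 3.27 CPM in knockouts and 3.79 ± 2.53 CPM in controls, and Mgst1, a membrane-bound microsomal enzyme, at 913 ± 140 CPM in knockouts and 96.4 ± 63.4 CPM in controls (SD, n = 3 each). Gsto2 rose by 4.98 ± 0.76 and Gstp1, of the pi class, by 3.59 ± 0.58 (log2, SE).

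In glutathione synthesis and recycling, 5 of 13 tested genes rose in the edgeR test and none fell, against 2.42% and 1.89% of all tested genes, with a median log2 fold change of 2.14. Gss, the second enzyme of glutathione synthesis, stood at 462 ± 49.3 CPM in knockouts and 27.7 ± 7.16 CPM in controls (SD, n = 3 each), and Gclm, Gclc and Gpx4 rose by log2 fold changes of 3.79, 4.59 and 1.33. Along the route that exports conjugates and turns them into mercapturates, 5 of 21 tested genes rose and 1 fell in the edgeR test, against 2.42% higher and 1.89% lower over all tested genes, with a median of 0.92. Ggt1, the gamma-glutamyl transferase that removes the first residue of a conjugate, stood at 18.8 ± 3.95 CPM in knockouts and 0.784 ± 0.0680 CPM in controls (SD, n = 3 each). Nat8, which acetylates the remaining cysteine conjugate, rose by 4.46 ± 0.61 (log2, SE), from counts of 52, 22 and 31 reads in knockouts 1 to 3, against 2, 1 and 1 in controls 1 to 3. The efflux pump genes Abcc5 and Abcc1 rose by 3.20 ± 0.42 and 2.68 ± 0.45 (log2, SE). The gene that fell was Anpep, an aminopeptidase gene named after its value was seen, at 15.3, 14.1 and 7.52 CPM in knockouts 1 to 3, against 96.2, 63.1 and 38.9 CPM in controls 1 to 3. Without knockout 1, 2 or 3 the edgeR test called no gene of these 4 lists, and without control 2 it called 1, 2, 2 and 0 higher in the other transferases, synthesis and recycling, the conjugate route and the regulators. Without control 3 these counts were 12, 6, 9 and 3.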

How the data were processed

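Messenger RNA of 3 Keap1 knockout and 3 control mouse tumours was analysed from the deposited table of whole-number read counts per Ensembl gene. Reads were aligned with STAR to mm39, per the submitters' processing notes, while no source names the counting tool, its annotation or its use of strand. The authors' deposited table of their DESeq2 comparison holds log2 fold changes, a mean normalized signal, a Wald score and p-values per symbol. Symbols came from a name table that paired 52073 of 56980 identifiers, 17548 of them tested.

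Genes were filtered with filterByExpr, scaled by TMM and fitted in edgeR 4.0.16 (R 4.3.3), whose robust quasi-likelihood test was two-sided, with genotype as the only term and Benjamini-Hochberg adjustment over 17901 genes at 0.05. The SE is the absolute log2 fold change divided by the square root of the F statistic. Log2 CPM used a prior count of 2. The fit was tested on simulated data. Coding sequences were aligned with mafft 7.526. The alternatives were scaling by RLE or by the upper quartile, no filter, 1 CPM in 3 samples, DESeq2 1.42.0, limma voom (limma 3.58.1), each sample left out, and the sample number as a block. All 7 members are named. Other genes are named by rule: the 10 flanking genes (protein-coding in RefSeq), the 3 nearest patterns of each member, and up to 4 called genes per list with the smallest p. Anpep was named after its value was seen. Total counts ranged from 18731515 to 23759892 reads, and no pair of replicates agreed within sampling noise. Some single genes of the marker and flanking lists are not reported here. Members and lists were chosen with earlier results of these data known. Build mm39 was not at hand, and GRCm38 served for sequences and lengths only.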

Additional observations from a re-analysis of the deposited data

How the results depend on the processing

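No member changed direction under any alternative run. Of the 4 members called by edgeR, all kept their call under RLE or upper-quartile scaling, without a filter, with 1 CPM in 3 samples, by DESeq2 and by limma voom. DESeq2 and limma voom also called Gstm3, with log2 fold changes of 4.91 and 5.74, and Gstm7, with 2.73 and 2.89. RLE scaling moved the median log2 fold change of all genes to -0.11, against -0.08 with TMM. Over all genes, higher and lower calls were 283 and 182 without a filter, 1613 and 2420 by DESeq2, 664 and 403 by limma voom, against 433 and 338 in the edgeR fit. By DESeq2, the other transferases had 14 higher and 1 lower, synthesis and recycling 8 higher, the conjugate route 10 higher and 2 lower, and the regulators 4 higher. Limma voom called 9 other transferases and 3 regulators higher, and without a filter edgeR called 0 regulators.

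Leaving out each library in turn gave 0 to 1568 higher and 0 to 1641 lower genes, 0 to 7 members, 0 to 12 other transferases higher and 0 to 2 lower, 0 to 7 of synthesis and recycling, 0 to 9 of the conjugate route higher and 0 to 1 lower, and 0 to 3 regulators. Log2 fold changes ran from 6.12 to 6.995 for Gstm1, 3.08 to 3.61 for Gstm2, 4.37 to 5.99 for Gstm3, 2.59 to 3.10 for Gstm4, 0.31 to 2.45 for Gstm5, 4.71 to 6.13 for Gstm6 and 2.46 to 3.52 for Gstm7. The family ratio ran from 44.3 to 65.2. With 2 libraries in a group, the spread is estimated from fewer samples.

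Samples that share a number in the labels share no stated origin. Their deviations from the group means correlated at 0.018, 0.00012 and 0.051, and those of samples with unlike numbers at -0.062 to 0.053. With so few samples, values this small cannot tell whether the numbers pair them. With the number as a replicate block edgeR called 0 genes in either direction, in the members and in each list (4026 genes at an unadjusted p below 0.05), with log2 fold changes of 6.52 for Gstm1, 3.37 for Gstm2, 2.96 for Gstm4 and 5.52 for Gstm6.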
